A study of Homo sapiens with 6 samples.

Results

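The genes described here encode the eukaryotic translation initiation factors and the proteins named with them. They were chosen by name and class, as every protein-coding entry of the expression table whose symbol starts with EIF and a digit from 1 to 6, without the kinases whose symbols start with EIF2AK. This gave 52 of 58825 entries, among 19968 protein-coding ones. Messenger RNA had been sequenced from the T24 line, grown from a human bladder carcinoma, with 3 libraries of a control hairpin (shNC-1, with the genotype given as WT) and 3 of a hairpin against DLGAP5 (shDLGAP5-1), a gene for a microtubule-binding protein of the mitotic spindle. The labels give neither the time after delivery of the hairpins nor whether the samples were separate cultures, so p-values measure only how these samples differ among themselves, a spread that could be technical. There is a single hairpin against DLGAP5, so an effect of the loss of DLGAP5 and an effect of that hairpin's sequence cannot be told apart.

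Initiation factors load the small ribosomal subunit with initiator tRNA, bring it to the capped end of an mRNA, and release it for elongation once a start codon is found. eIF4E holds the cap, eIF4G is the scaffold that ties eIF4E to the RNA helicase eIF4A and to eIF3 on the ribosome, and these cap-binding parts together are called eIF4F. eIF2 carries the initiator tRNA with GTP and is recharged by its exchange factor eIF2B, a step that stress kinases block, while mTORC1 frees eIF4E from its binding proteins. Because growth and division need protein, eIF4F and its regulators are much studied in carcinoma cells.

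Values are FPKM, that is fragments per kilobase of transcript and unit of library size, and fold changes are differences of log2(FPKM + 1), shDLGAP5-1 minus shNC-1, from limma with Benjamini-Hochberg adjustment over the 12714 genes that reached 1 FPKM in 3 or more libraries. A gene is said to have risen or fallen where its adjusted p was under 0.05. Depth, estimated from the smallest steps of low single-exon genes, was about 21600000 to 27900000 fragments in shNC-1 and 13600000 to 18400000 in shDLGAP5-1 libraries. DLGAP5 itself measured 33.0, 32.7 and 29.7 FPKM in shNC-1 and 5.03, 4.0001 and 7.51 FPKM in shDLGAP5-1 replicates 1 to 3 (log2 fold change −2.37, adjusted p = 0.000894). The keratins KRT7, KRT8 and KRT18 and vimentin were abundant, at 237 to 1630 FPKM. Other epithelial markers were lower. KRT19 was at 10.6 to 20.9 FPKM and EPCAM at 0.765 to 1.18 FPKM, while CDH1, GATA3 and TP63 stayed under 1 FPKM. KRT5 was at 0.0260 to 3.95 FPKM in shNC-1 and listed at 0 in shDLGAP5-1. The uroplakins UPK1B and UPK2 stayed under 1 FPKM, and UPK3A was at 2.28 FPKM in shDLGAP5-1 replicate 3 and listed at 0 in the others. In shDLGAP5-1 replicate 3 the summed level of 13 leukocyte markers was 1793 FPKM, against 362 to 510 FPKM in the other libraries. SRGN alone made up most of the sum in the other libraries, at 345 to 481 FPKM, and was at 1013 FPKM in that replicate. PTPRC, TYROBP and LAPTM5 were at 7.03, 11.2 and 34.7 FPKM there and at no more than 2.02 FPKM elsewhere. LYZ was at 686 FPKM there and at 0.598 to 21.1 FPKM elsewhere. CD14, CD79A and HLA-DRA stayed under 1 FPKM in every library, and CD3E was listed at 0 in all of them. In the fit without shDLGAP5-1 replicate 3, the initiation factor genes that fell numbered 7 and 0 rose, against 8 and 1 with all libraries. The part of those transcripts in the results was not tested.

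Initiation factor genes were more often lower than higher in shDLGAP5-1 cells, led by the scaffold EIF4G1, EIF5A, the scaffold EIF4G2 and the cap-binding protein EIF4E. Of the 52 genes, 46 passed the filter on low values and were tested. 8 of these (17.4%) fell, where 9.52% of all tested genes did, and 1 (2.17%) rose, where 15.3% of all tested genes did. Those that fell were EIF4G1, EIF4G2, EIF4E, EIF5A, EIF5A2, EIF1AX, EIF2B3 and EIF3A, and the one that rose was EIF4A2. Calls in either direction made up 19.6% of the tested members and 24.8% of all tested genes, so the members did not stand above the background in number of calls. The median log2 fold change was −0.14 over the tested members and 0.03 over all tested genes. The background depends on the filter. With it raised to 5 FPKM, which all 46 tested members passed, 1076 of 8781 genes fell and 1168 rose. The median over those genes was −0.02, and 8 members fell and 1 rose as before. In these bulk samples fewer cells of a type and less RNA per cell cannot be told apart.

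In 17 tested members (37.0%) every shDLGAP5-1 library lay under every shNC-1 library, and in 4 (8.70%) every one lay above; over all tested genes these shares were 18.3% and 25.6%. The median deviation of the tested members from the shNC-1 mean lay between −0.04 and 0.05 in shNC-1 libraries and at −0.19, −0.10 and −0.19 in shDLGAP5-1 replicates 1 to 3. Summed over the 51 members other than Y-linked EIF1AY, the level was 4013, 3910 and 4180 FPKM in shNC-1 and 3694, 3722 and 3783 FPKM in shDLGAP5-1. The groups therefore did not overlap, and the shDLGAP5-1 sum was 0.925 times the other on average (exact two-sided permutation p = 0.1, the smallest that 3 against 3 libraries allow). Abundant genes weigh most in this sum. Mean levels in shNC-1 and shDLGAP5-1 were 482 and 257 FPKM for EIF5A, 177 and 81.4 FPKM for EIF4G1, and 195 and 117 FPKM for EIF4G2. The falls of these genes together were larger than the fall of the whole sum, so the sum does not show a lowering shared by the other members. Of the tested members, 30 had a log2 fold change below 0 and 16 above. EIF4G1, EIF4G2, EIF4E, EIF5A and EIF1AX fell in the fit as reported and in each of 16 alternative fits. Over all genes 61.6% of calls were rises. That share was 48.1% after scaling columns to the same total, 50.8% with quantile normalization and 50.04% after removal of a length trend. It was 52.0% with the filter at 5 FPKM. All calls numbered 3155, and 1497, 1326 and 1911 without shNC-1 replicate 1, 2 or 3 and 1708 without shDLGAP5-1 replicate 2.

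**Figure D1:**
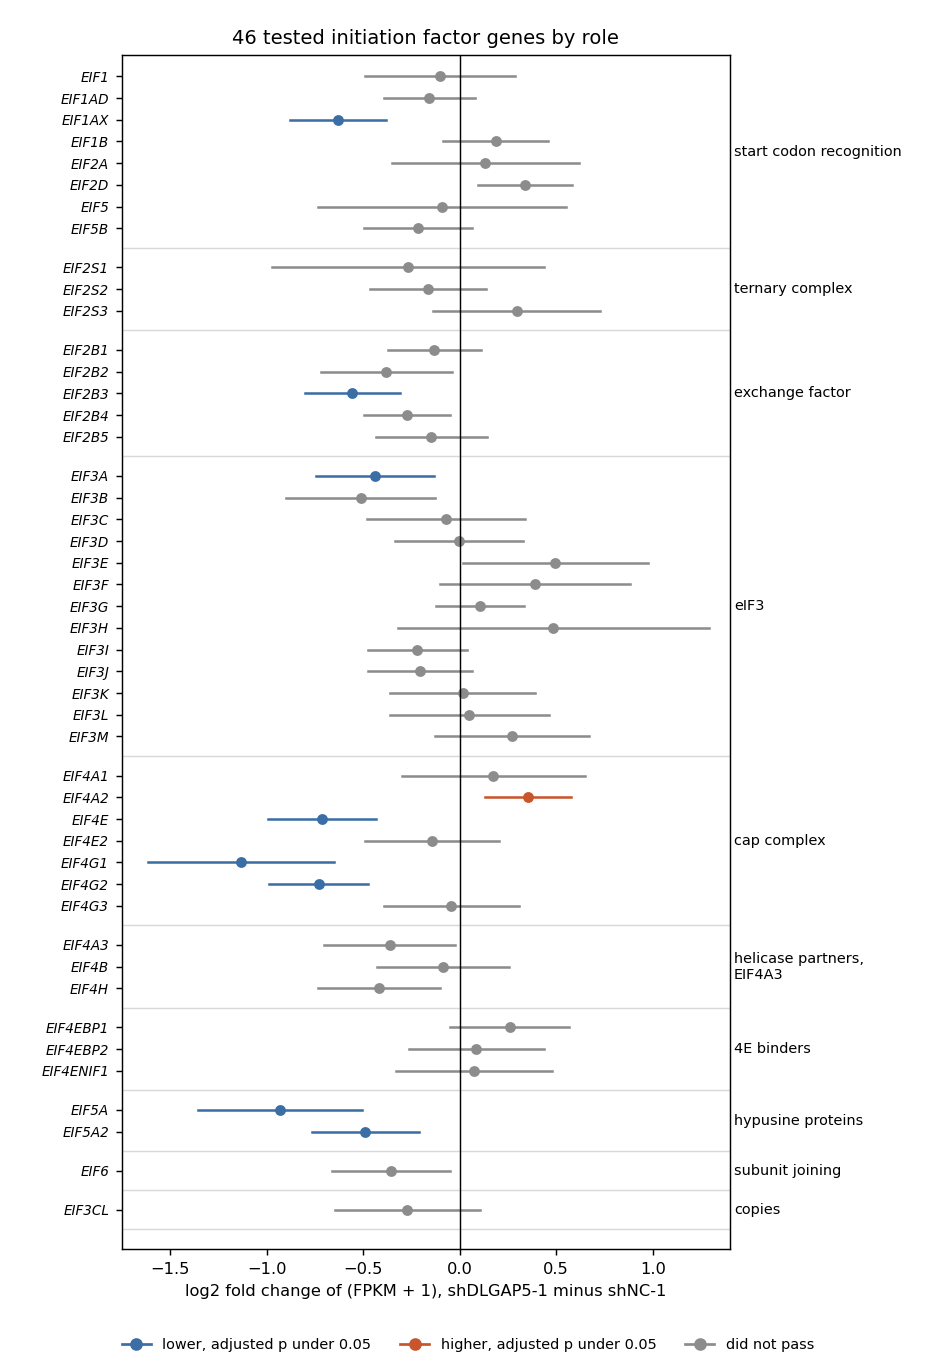
Log2 fold change of each of the 46 tested initiation factor genes (points, x axis, with bars for the 95% interval from limma), grouped by role from top to bottom. 8 genes fell (blue) and 1 rose (orange), with EIF4G1 farthest to the left at −1.13, and the grey genes did not pass.

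Promoter sequence was searched for motifs fixed before the search, as a description without a test. RefSeq windows from 250 bases before to 50 bases after the most upstream start (GRCh38.p14) were found for 44 members. EIF3A, EIF3E, EIF3G, EIF3H, EIF3L, EIF3CL, EIF2S2 and EIF4EBP1 had no entry. The E-box CACGTG, a palindrome bound by MYC and related factors, was present in 10 of 38 tested members with a window (26.3%), beside 945 of 9256 tested genes (10.2%) and 2021 of 27305 genes in the promoter table (7.40%). Members that fell held it in 4 of 7 windows and tested members that did not pass in 6 of 30. The share among all genes that fell was not computed, so this split has no background beside it. Whether the E-box goes with a fall was not tested. EIF4G1, EIF4E, EIF2B3 and EIF5A2 are the 4 members that fell and hold it, and the 30 bases around each of their E-boxes are shown 5′ to 3′ on the gene's strand, with the E-box in capitals and its place counted in bases before the RefSeq start.
EIF4G1, 144 before: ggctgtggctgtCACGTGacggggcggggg
EIF4G1, 67 before: ccctgcgccggtCACGTGggggcgccggct
EIF4E, 225 before: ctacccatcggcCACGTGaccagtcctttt
EIF4E, 72 before: ggacatatccgtCACGTGgccagaagctgg
EIF2B3, 179 before: gacagagggacaCACGTGtcgaatgctcct
EIF5A2, 187 before: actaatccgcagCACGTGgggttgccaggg
EIF5A2, 162 before: cagggcgctcttCACGTGactgggcggagc
In the same order they lie at chr3:184314450-184314479 and chr3:184314527-184314556 on the plus strand, and on the minus strand at chr4:98929341-98929370, chr4:98929188-98929217, chr1:44986757-44986786, chr3:170908807-170908836 and chr3:170908782-170908811. The RefSeq starts lie downstream of the gene starts in the expression table, by 111 bases in EIF4G1, 1504 in EIF4E, 127 in EIF2B3 and 7 in EIF5A2. In GENCODE 29 the E-boxes of EIF2B3 and EIF5A2 and the first of EIF4G1 lie upstream of the gene, while the second of EIF4G1 and both of EIF4E lie in an annotated 5′ UTR. EIF4G2, EIF5A and EIF1AX fell without a match in their windows, and EIF1B, EIF3F, EIF3K, EIF4A3, EIF4B and EIF4H had a match without passing the test.

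Other motifs, searched on both strands, were near the background in the tested members. The GC box GGGCGG was in 28 of 38 windows (73.7%, against 71.7% of tested genes), the ETS motif CCGGAAG in 10 (26.3%, against 20.8%) and the CCAAT box in 16 (42.1%, against 37.4%). No member's window held the CRE TGACGTCA, the NRF1 motif or the amino acid response element TGATGNAA, which 3.28%, 2.43% and 1.48% of tested genes had. No other motif in this search contains the letters of the E-box. A match is a description of the letters only.

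Both EIF4G1 and EIF4G2, scaffolds of initiation complexes, fell, and EIF4G1 showed the largest fall of any member. EIF4G1, the main scaffold of eIF4F (ENSG00000114867, chromosome 3 from 184314495 to 184335358), measured 172.0, 203.6 and 155.3 FPKM in shNC-1 and 59.4, 83.9 and 101.0 FPKM in shDLGAP5-1 replicates 1 to 3. Every shDLGAP5-1 library was therefore well under the lowest control, with replicate 1 lowest. The means were 177 ± 24.5 and 81.4 ± 20.9 FPKM (SD, n = 3 each), and the log2 fold change was −1.13 (limma adjusted p = 0.00936, standard error 0.20; −0.93 to −1.30 over the alternatives). EIF4G2, also called DAP5 (chromosome 11 from 10797050 to 10808940), is a relative that lacks the eIF4E-binding part and supports initiation that does not use the cap. Its levels were 208.7, 200.3 and 176.7 FPKM in shNC-1 and 110.8, 122.9 and 117.8 FPKM in shDLGAP5-1, and its log2 fold change was −0.73 (standard error 0.11, adjusted p = 0.00505). The shDLGAP5-1 libraries lay close together, at 60.0% of the control mean.

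EIF4G3, the remaining scaffold gene and a close relative of EIF4G1, did not pass. Its levels were 15.2, 15.3 and 13.7 FPKM in shNC-1 and 11.5, 15.1 and 16.6 FPKM in shDLGAP5-1, so the groups overlapped, and the log2 fold change was −0.04 with a 95% interval from −0.39 to 0.31. Within a library, the ratio of EIF4G3 to EIF4G1 was 0.0884, 0.0749 and 0.0880 in shNC-1 and 0.194, 0.180 and 0.164 in shDLGAP5-1, 2.14 times higher on average. A ratio of this kind does not depend on how libraries are scaled. The 3 scaffold genes summed to 396, 419 and 346 FPKM in shNC-1 and 182, 222 and 235 FPKM in shDLGAP5-1, that is 0.5504 times the control on average (exact permutation p = 0.1).

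EIF4E, the cap-binding protein itself (chromosome 4 from 98871684 to 98930637), fell as well, from a low level. Its levels were 7.64, 8.19 and 7.16 FPKM in shNC-1 and 3.89, 4.76 and 4.23 FPKM in shDLGAP5-1 replicates 1 to 3. The groups were apart, at a mean of 7.66 ± 0.516 against 4.29 ± 0.441 FPKM (SD, n = 3 each), and the log2 fold change was −0.71 (standard error 0.12, adjusted p = 0.00744). With a pseudocount of 0.1 it was −0.82, since adding 1 FPKM understates changes at this level. EIF4E2, a cap-binding relative that acts in repression, was more abundant and overlapped between groups. It was at 31.0, 33.4 and 44.9 FPKM in shNC-1 and 33.4, 32.3 and 31.6 FPKM in shDLGAP5-1 (log2 fold change −0.14, adjusted p = 0.515). EIF4E3, another cap-binding relative, stayed under the filter with 0.567, 0.586 and 0.463 FPKM in shNC-1 and 0.84999, 0.833 and 0.915 FPKM in shDLGAP5-1, and so was not tested. Its ratio to EIF4E was 0.0741, 0.0716 and 0.0648 in shNC-1 and 0.219, 0.175 and 0.216 in shDLGAP5-1. The ratio of EIF4E2 to EIF4E was 4.05, 4.08 and 6.27 in shNC-1 and 8.60, 6.79 and 7.47 in shDLGAP5-1, so both relatives stood higher beside EIF4E in each shDLGAP5-1 library. EIF4E1B, an oocyte form, was listed at 0 in every library.

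The helicase genes of the cap complex did not fall. EIF4A2 (chromosome 3 from 186783205 to 186789897), a close paralog of the major helicase EIF4A1, measured 89.4, 87.4 and 89.2 FPKM in shNC-1 and 107.4, 113.1 and 120.2 FPKM in shDLGAP5-1. Each shDLGAP5-1 library was higher, and the log2 fold change of 0.35 (standard error 0.09, adjusted p = 0.0346) passed. That call ended without any of shNC-1 replicates 1, 2 and 3 or shDLGAP5-1 replicates 2 and 3 (adjusted p = 0.0743 to 0.143), after scaling columns to the same total (0.176) and with median-ratio scaling (0.0535), with the sign kept throughout. The EIF4A2 call also ended with the replicate number as a block (limma adjusted p = 0.138). EIF4A1 itself was at 187.2, 165.3 and 212.3 FPKM in shNC-1 and 160.2, 270.5 and 217.9 FPKM in shDLGAP5-1, which overlap (log2 fold change 0.17, adjusted p = 0.562). The read-through entry SENP3-EIF4A1 overlaps it on the same strand, so reads can be shared, and was listed at 26.6, 48.5 and 24.8 FPKM in shNC-1 and at 0, 0 and 11.1 FPKM in shDLGAP5-1. With both entries summed, an alternative chosen after the values were seen, the log2 fold change was −0.04 (adjusted p = 0.895). The ratio of EIF4A2 to EIF4A1 overlapped between groups, at 0.477, 0.529 and 0.420 in shNC-1 and 0.670, 0.418 and 0.552 in shDLGAP5-1.

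**Figure D2:**
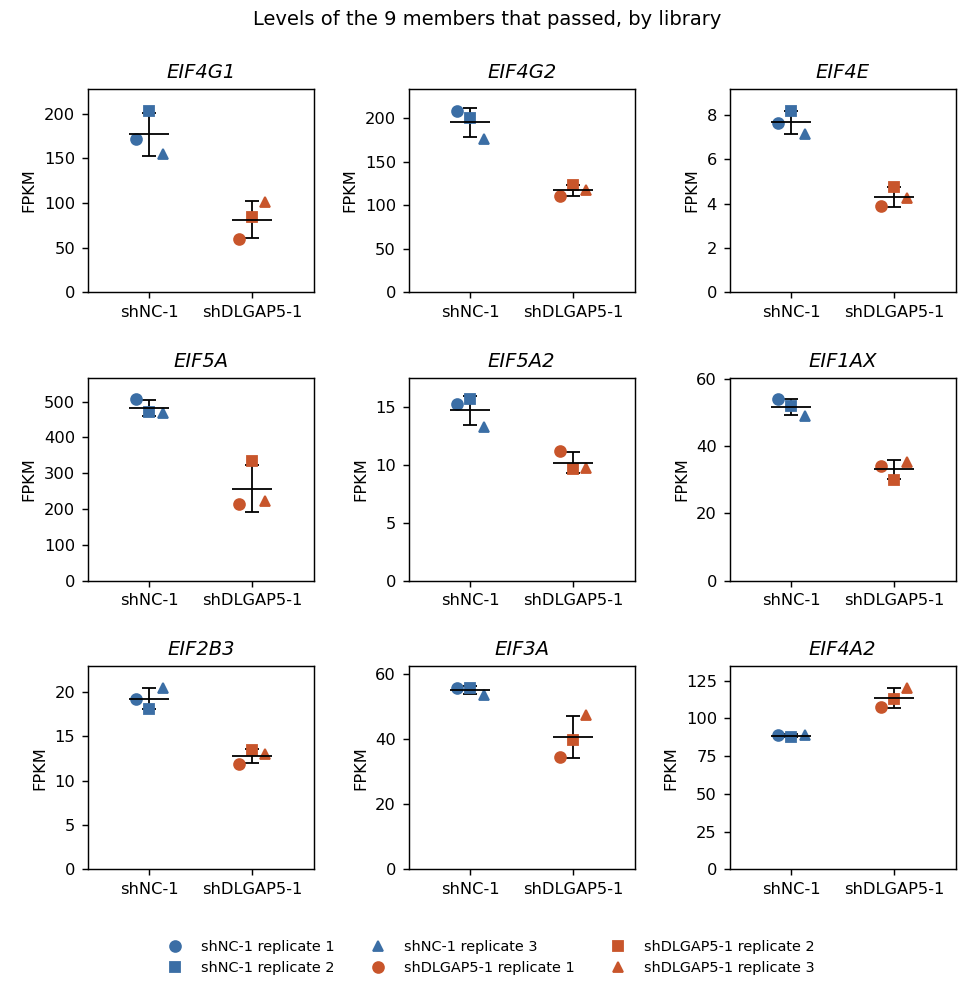
FPKM in each library (points; shape gives the replicate number) of the 9 members that passed, with the mean and SD of each group as a line and bars; the y axes start at 0. In each panel the shNC-1 and shDLGAP5-1 points are apart, and EIF4A2 is the panel in which shDLGAP5-1 is higher.

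EIF4B and EIF4H are RNA-binding partners that stimulate eIF4A, and EIF4A3 is a related helicase of the exon junction complex. EIF4H was at 164.5, 157.9 and 154.2 FPKM in shNC-1 and 98.7, 129.6 and 130.4 FPKM in shDLGAP5-1. It had no overlap between groups but did not pass (log2 fold change −0.42, adjusted p = 0.0597), except with median-ratio scaling (0.0330) and with the length trend removed (0.0267). EIF4B overlapped, with 139.7, 129.2 and 139.9 FPKM in shNC-1 against 105.9, 131.5 and 151.8 FPKM in shDLGAP5-1 (log2 fold change −0.09). The ratio of EIF4B to EIF4H was higher in each shDLGAP5-1 library, at 1.07, 1.01 and 1.16, than in the shNC-1 libraries, at 0.8496, 0.819 and 0.907. EIF4A3 measured 48.8, 51.2 and 63.5 FPKM in shNC-1 and 36.5, 42.8 and 46.9 FPKM in shDLGAP5-1 (log2 fold change −0.36, adjusted p = 0.108). Its ratio to EIF4A1 was lower in every shDLGAP5-1 library, 0.692 times on average. That ratio leaves out the read-through entry SENP3-EIF4A1, which can share reads with EIF4A1. EIF4A1 and that entry summed to 213.8, 213.8 and 237.2 FPKM in shNC-1 and 160.2, 270.5 and 229.1 FPKM in shDLGAP5-1. The ratio of EIF4A3 to this sum was not tested.

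None of the 3 tested eIF4E-binding proteins passed. EIF4EBP1, the most abundant of these repressors and a target of mTORC1, was at 140.4, 145.5 and 167.9 FPKM in shNC-1 and 201.4, 185.1 and 158.3 FPKM in shDLGAP5-1. Replicate 3 of each group made the ranges overlap (log2 fold change 0.26, 95% interval −0.05 to 0.57, adjusted p = 0.190). Its ratio to EIF4E, the protein it holds, was 18.4, 17.8 and 23.5 in shNC-1 and 51.8, 38.9 and 37.4 in shDLGAP5-1, without overlap and 2.15 times higher on average. This ratio compares transcript levels, and the phosphorylation that governs binding was not measured. Ratios were not corrected for the length trend. With that trend removed, the log2 fold change was 0.07 for EIF4EBP1 and −0.65 for EIF4E. EIF4EBP2 was at 11.5, 11.5 and 10.7 FPKM in shNC-1 and 9.80, 12.2 and 14.4 FPKM in shDLGAP5-1, and EIF4ENIF1, which carries eIF4E into the nucleus, at 6.30 to 7.45 against 5.63 to 8.65 FPKM. EIF4EBP3 stayed under 1 FPKM in every library, at 0.130 to 0.969 FPKM. The read-through entry ANKHD1-EIF4EBP3 overlaps it on the same strand, so reads can be shared and the EIF4EBP3 level is uncertain. That entry was at 8.57 to 10.3 FPKM in shNC-1 and 11.2 to 14.4 FPKM in shDLGAP5-1, and did not pass (limma log2 fold change 0.36, adjusted p = 0.0900).

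**Figure D3:**
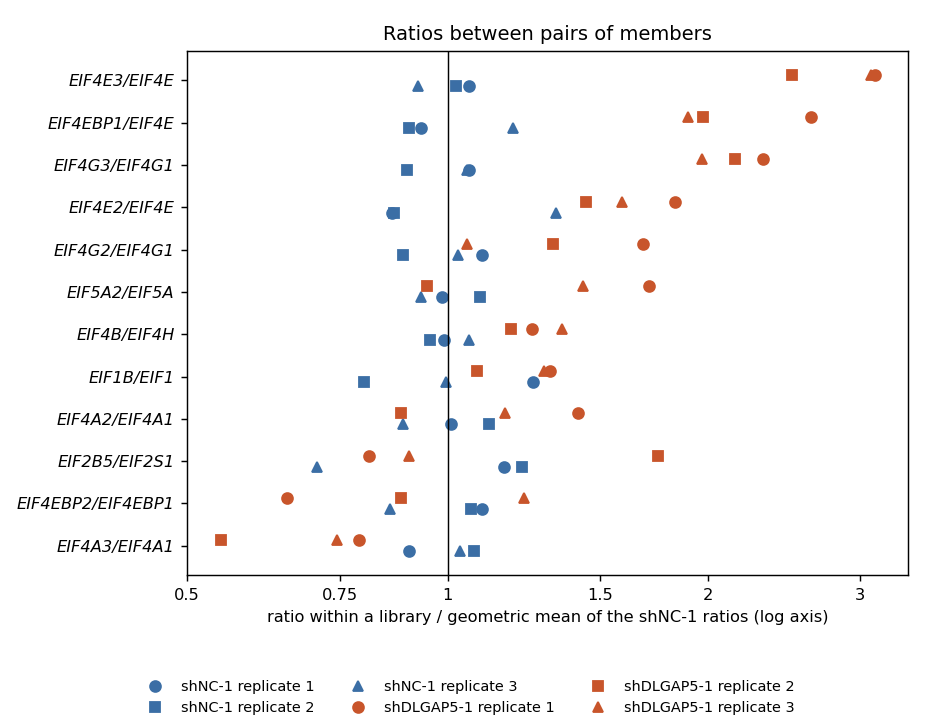
Ratio of FPKM between 2 members within each library, for 12 pairs, divided by the geometric mean of that ratio in shNC-1 (log axis; shape gives the replicate number). In 6 pairs the groups do not overlap: EIF4E3, EIF4EBP1 and EIF4E2 to EIF4E, EIF4G3 to EIF4G1 and EIF4B to EIF4H are higher in shDLGAP5-1, and EIF4A3 to EIF4A1 is lower. Taken as single genes, 43.9% of all tested genes had no overlap. EIF4A1 is taken here without the read-through entry SENP3-EIF4A1, which can share its reads.

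Of the 12 pairs of members compared as ratios, 6 had no overlap between groups, 5 of them higher in shDLGAP5-1. Taken as single genes, 43.9% of all tested genes had no overlap between groups. The share for ratios between other genes was not computed, so the count of pairs does not set these members apart. Each of these 6 had an exact two-sided permutation p of 0.1, the smallest that this design allows, and an adjusted p of 0.2 over the 12 pairs. Pairs with EIF4E share a denominator, so their ratios are not independent of each other. The separation of EIF4A3 to EIF4A1 holds for EIF4A1 without SENP3-EIF4A1, an entry that can share its reads. The ratios that overlapped were EIF4G2 to EIF4G1 (1.21, 0.984 and 1.14 in shNC-1 against 1.86, 1.46 and 1.17 in shDLGAP5-1), EIF5A2 to EIF5A, EIF1B to EIF1, EIF4A2 to EIF4A1, EIF4EBP2 to EIF4EBP1 and EIF2B5 to EIF2S1.

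EIF5A, the hypusine-carrying protein that helps ribosomes through difficult peptide bonds and at termination (chromosome 17 from 7306999 to 7312463), was the most abundant member in shNC-1 cells and fell. Its levels were 506.4, 471.1 and 468.2 FPKM in shNC-1 and 215.2, 333.7 and 223.2 FPKM in shDLGAP5-1 replicates 1 to 3. All shDLGAP5-1 libraries were lower, with replicate 2 nearest to the controls. The means were 482 ± 21.2 and 257 ± 66.2 FPKM (SD, n = 3 each), a log2 fold change of −0.93 (standard error 0.18, adjusted p = 0.0121). EIF5A2, its paralog and a gene often amplified in carcinomas (chromosome 3 from 170888418 to 170908644), also fell, from 15.3, 15.7 and 13.3 FPKM to 11.3, 9.66 and 9.78 FPKM (log2 fold change −0.49, standard error 0.12, adjusted p = 0.0246). That call ended when shNC-1 replicate 1 or 2, or shDLGAP5-1 replicate 2 or 3, was left out (adjusted p = 0.0518 to 0.108). The EIF5A2 call also ended with the replicate number as a block (limma adjusted p = 0.0807). EIF5AL1, an intronless copy, stayed at 0.109 to 0.243 FPKM.

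The enzymes that make hypusine on EIF5A differed in direction. DOHH, the hydroxylase of the last step, fell from 9.71, 9.72 and 10.6 FPKM in shNC-1 to 5.995, 6.51 and 6.07 FPKM in shDLGAP5-1 (log2 fold change −0.62, adjusted p = 0.00796). DHPS, deoxyhypusine synthase of the first step, rose from 10.0, 10.1 and 11.1 FPKM to 12.8, 16.9 and 22.6 FPKM (log2 fold change 0.66, adjusted p = 0.0459). The DHPS call ended in the fits without any of the shNC-1 libraries or without shDLGAP5-1 replicate 2 or 3, after scaling columns to the same total, with the length trend removed and with no filter, with its sign kept; that of DOHH held in each fit without 1 library.

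Among the factors of start codon recognition, EIF1AX fell and the others did not pass. EIF1AX encodes eIF1A, which keeps the scanning ribosome open, on chromosome X from 20124525 to 20141838. Its levels were 53.9, 51.9 and 49.1 FPKM in shNC-1 and 34.2, 29.9 and 35.3 FPKM in shDLGAP5-1, and its log2 fold change was −0.63 (standard error 0.11, adjusted p = 0.00749). The groups were clearly apart, at 64.2% of the control mean. EIF1, the fidelity factor that works beside it, was at 123.8, 182.0 and 148.9 FPKM in shNC-1 and 149.4, 149.1 and 122.1 FPKM in shDLGAP5-1, which overlap (log2 fold change −0.10). EIF1B, its paralog, lay higher in each shDLGAP5-1 library, at 48.5, 39.9 and 39.0 FPKM against 38.4, 36.0 and 36.7 FPKM in shNC-1, but did not pass (log2 fold change 0.19, adjusted p = 0.274).

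EIF5, the GTPase activator for eIF2, was at 35.0, 32.3 and 33.2 FPKM in shNC-1 and 51.2, 23.8 and 25.1 FPKM in shDLGAP5-1. Its shDLGAP5-1 libraries lay on both sides of the controls, and it fell only in the fit without shDLGAP5-1 replicate 1. EIF5B, which joins the subunits, had a log2 fold change of −0.21 (adjusted p = 0.226) and EIF1AD, an eIF1A-domain protein, one of −0.16 (adjusted p = 0.287). EIF2D, a factor of noncanonical tRNA delivery, was higher in each shDLGAP5-1 library, at 25.7, 25.1 and 24.8 FPKM against 18.4, 19.1 and 21.7 FPKM in shNC-1. It missed the threshold (log2 fold change 0.34, adjusted p = 0.0529) and passed only with quantile normalization among the 16 alternatives. EIF2A, another alternative tRNA carrier, varied within shNC-1, at 42.5, 53.3 and 77.1 FPKM, and stood at 61.4, 64.7 and 58.1 FPKM in shDLGAP5-1.

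The exchange factor eIF2B was lower in part and its substrate eIF2 showed no change that passed. Every one of the 5 eIF2B subunit genes had a log2 fold change below 0, from −0.56 to −0.13, and 1 of them fell. This was EIF2B3, the gamma subunit (chromosome 1 from 44850522 to 44986722), at 19.2, 18.1 and 20.5 FPKM in shNC-1 and 11.9, 13.4 and 12.97 FPKM in shDLGAP5-1 (log2 fold change −0.56, standard error 0.10, adjusted p = 0.0108). EIF2B4, the delta subunit, was at 19.1, 18.4 and 19.8 FPKM in shNC-1 and 15.4, 15.5 and 15.9 FPKM in shDLGAP5-1 (adjusted p = 0.0744). EIF2B2, the beta subunit, was at 11.03, 12.2 and 14.8 FPKM in shNC-1 and 10.8, 9.005 and 8.68 FPKM in shDLGAP5-1 (adjusted p = 0.0976). Neither overlapped between groups and neither passed. EIF2B4 passed with median-ratio scaling (0.0453) and EIF2B2 after scaling columns to the same total (0.0424). EIF2B5, the catalytic epsilon subunit, overlapped between groups, at 15.9, 17.2 and 18.5 FPKM in shNC-1 and 14.4, 17.6 and 14.4 FPKM in shDLGAP5-1, as did EIF2B1, the alpha subunit. Summed, the subunits came to 87.2, 89.7 and 98.3 FPKM in shNC-1 and 73.5, 75.9 and 74.8 FPKM in shDLGAP5-1, or 0.815 times the control on average (exact permutation p = 0.1).

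The eIF2 subunit genes summed to 411, 356 and 415 FPKM in shNC-1 and 434, 349 and 414 FPKM in shDLGAP5-1. EIF2S2, the beta subunit, ranged from 178.6 to 215.9 FPKM in shNC-1 and from 161.4 to 194.4 FPKM in shDLGAP5-1, and EIF2S3, the gamma subunit on chromosome X, from 135.6 to 199.2 FPKM and from 163.1 to 213.2 FPKM. EIF2S1, the alpha subunit that stress kinases phosphorylate, was at 33.4, 34.2 and 63.7 FPKM in shNC-1 and 43.4, 24.5 and 38.8 FPKM in shDLGAP5-1. Its spread within shNC-1, where replicate 3 stood apart, gave a 95% interval of the log2 fold change from −0.97 to 0.44. EIF2S3B, a copy of EIF2S3 on chromosome 12, stayed at 0.0671 to 0.154 FPKM.

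eIF3, the large complex that binds the small subunit to eIF4G, differed in direction among its 13 subunit genes. 1 subunit gene fell, EIF3A, and 0 rose; 7 had a log2 fold change above 0 and 6 below, with a median of 0.01. EIF3A, which holds the core together (chromosome 10 from 119033670 to 119080823), was at 55.8, 55.7 and 53.7 FPKM in shNC-1 and 34.7, 39.9 and 47.5 FPKM in shDLGAP5-1 (log2 fold change −0.44, standard error 0.13, adjusted p = 0.0469). Its call ended without any of the shNC-1 replicates or without shDLGAP5-1 replicate 1 or 2 (adjusted p = 0.0800 to 0.142), with no filter on low values (0.101), after scaling columns to the same total (0.0505) and with quantile normalization (0.0769). The EIF3A call also ended with the replicate number as a block (limma adjusted p = 0.115). EIF3B, partner of EIF3A in the core, lay lower in each shDLGAP5-1 library, at 36.1, 54.0 and 52.6 FPKM against 65.2, 65.8 and 70.6 FPKM in shNC-1 (log2 fold change −0.51, adjusted p = 0.0599), and passed with median-ratio scaling (0.0360) and with the length trend removed (0.0295). It also passed with the length trend removed and the replicate number as a block (limma adjusted p = 0.0498). EIF3A and EIF3B both have their lowest value in shDLGAP5-1 replicate 1.

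EIF3E and EIF3H lay on the other side. EIF3E, a subunit of the outer PCI and MPN domain group, was the most abundant member in shDLGAP5-1 cells, at 340.5, 292.7 and 331.8 FPKM in shNC-1 and 599.0, 343.2 and 451.7 FPKM in shDLGAP5-1. The groups did not overlap, but 343.2 lay just above 340.5 FPKM, and the gene did not pass (log2 fold change 0.50, adjusted p = 0.120) except without shDLGAP5-1 replicate 2 (0.0477). EIF3H, of the same group, was at 59.4, 61.7 and 68.2 FPKM in shNC-1 and 65.3, 64.6 and 164.0 FPKM in shDLGAP5-1, so that its log2 fold change of 0.48 (adjusted p = 0.336) rested on shDLGAP5-1 replicate 3. That library has the highest summed level of leukocyte markers, 1793 FPKM against 362 to 510 FPKM in the others. SRGN alone was at 345 to 481 FPKM in those others, and the part of these markers in the EIF3H value was not tested. EIF3F, at 22.03 to 32.3 FPKM in shNC-1 and 25.6 to 39.1 FPKM in shDLGAP5-1, and EIF3M, at 61.0 to 78.4 and 71.8 to 101.9 FPKM, overlapped.

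The other eIF3 genes did not pass. EIF3I, a small core subunit, and EIF3J, a loosely bound one, lay lower in each shDLGAP5-1 library without passing (log2 fold change −0.22 and −0.20); EIF3I passed after scaling columns to the same total (adjusted p = 0.0480) and with the length trend removed (0.0120). EIF3D, EIF3G, EIF3K and EIF3L overlapped between groups, with log2 fold changes from −0.00 to 0.11. EIF3C and its near-identical copy EIF3CL can share reads, so each value is uncertain. Summed, they came to 41.1, 36.2 and 39.1 FPKM in shNC-1 and 26.1, 40.0 and 35.0 FPKM in shDLGAP5-1. The 13 subunit genes summed to 1223, 1160 and 1316 FPKM in shNC-1 and 1450, 1255 and 1460 FPKM in shDLGAP5-1, and without EIF3E and EIF3H to 823, 805 and 915 against 785, 848 and 844 FPKM.

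**Figure D4:**
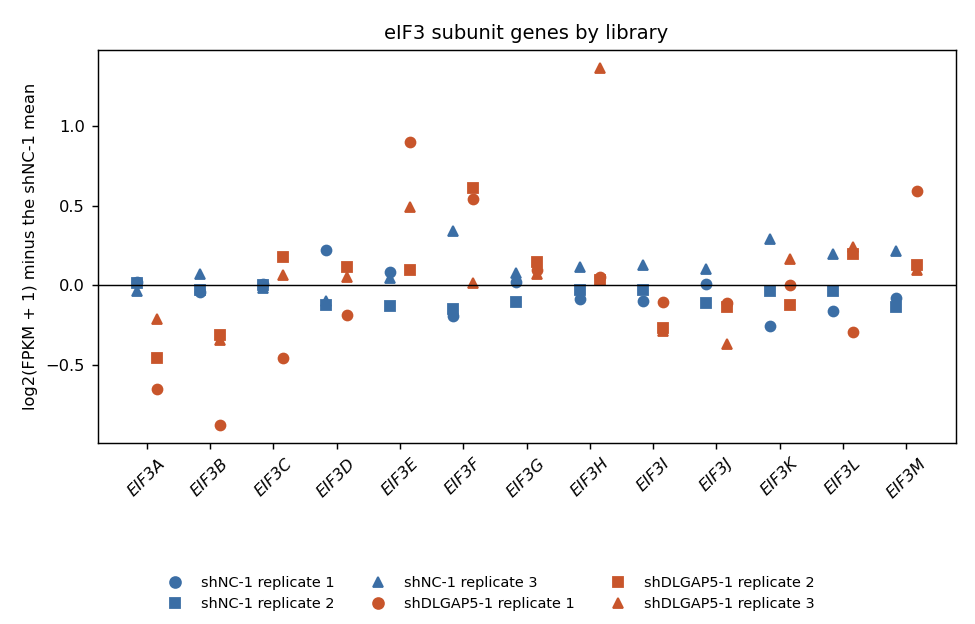
Difference of log2(FPKM + 1) from the shNC-1 mean for the 13 eIF3 subunit genes in each library (shape gives the replicate number). EIF3A and EIF3B lie under 0 in every shDLGAP5-1 library, EIF3E lies above 0 in every one, and EIF3H is high in replicate 3 only.

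EIF6, which keeps the large ribosomal subunit from joining too early and acts in its assembly, was lower in each shDLGAP5-1 library. Its levels were 142.9, 142.6 and 169.4 FPKM in shNC-1 and 117.7, 132.7 and 104.8 FPKM in shDLGAP5-1. The log2 fold change of −0.36 did not pass (adjusted p = 0.0868), except after scaling columns to the same total (0.0339) and with the length trend removed (0.0153).

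Other genes of translation and its control were called about as often as all genes. Of 57 listed genes 54 were tested; 24.1% were called in either direction, against 24.8% of all tested genes. By direction, 11 fell (20.4%, against 9.52%) and 2 rose (3.70%, against 15.3%). In the arm of the eIF2 kinases and phosphatase, PPP1R15A, the stress-induced subunit GADD34 that directs phosphatase to eIF2, fell from 81.8, 84.2 and 91.2 FPKM in shNC-1 to 45.1, 48.2 and 37.8 FPKM in shDLGAP5-1 (log2 fold change −0.96, adjusted p = 0.00275), and did so in each alternative fit. PPP1CB, a catalytic subunit, rose by 0.45 (adjusted p = 0.0292), a call that ended in all but 1 of the 6 fits without 1 library, with no filter, with median-ratio scaling and after scaling columns to the same total. EIF2AK1, EIF2AK2, EIF2AK3 and EIF2AK4, the kinases of eIF2, had log2 fold changes from −0.08 to 0.02 and did not pass. GCN1, the activator of EIF2AK4, had a log2 fold change of −0.64 (adjusted p = 0.0834), which passed without shDLGAP5-1 replicate 3 (0.0474) and with the length trend removed (0.0348).

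In the mTORC1 and MNK list 2 of 15 tested genes fell (13.3%, against 9.52% of all tested genes) and 0 rose (against 15.3%). RPTOR, the substrate-binding subunit of mTORC1, went from 11.6, 11.6 and 9.29 FPKM in shNC-1 to 5.16, 5.83 and 7.27 FPKM in shDLGAP5-1 (log2 fold change −0.74, adjusted p = 0.0150). LARP1, an mTORC1 target that binds mRNAs of ribosomal proteins, had a log2 fold change of −0.57 (adjusted p = 0.0187), and RHEB, the GTPase that switches mTORC1 on, one of −0.37 that did not pass (adjusted p = 0.0588) except after scaling columns to the same total (0.0239) and with the length trend removed (0.0120). The RPTOR and LARP1 calls each ended when shNC-1 replicate 1 or 2, or shDLGAP5-1 replicate 2, was left out. Among partners of the cap, the tail and scanning, 4 of 15 fell (26.7%, against 9.52%) and 0 rose. ABCE1, which splits ribosomes for reuse, had a log2 fold change of −0.64 (adjusted p = 0.0138), and the scanning helicases DDX3X and DHX29 had −0.60 and −0.61 (adjusted p = 0.0178 and 0.0221). DENR, which with MCTS1 acts in ribosome recycling and was named after its value was seen, was the other that fell, at −0.36 (adjusted p = 0.0342). The calls of ABCE1, DDX3X, DHX29 and DENR each ended without shNC-1 replicate 1 or 2; those of DDX3X and DHX29 also without shDLGAP5-1 replicate 2, that of DHX29 without shNC-1 replicate 3, and that of DENR without any 1 of the 6 libraries.

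Of 11 tested elongation and release genes 3 fell (27.3%, against 9.52% of all tested genes) and 0 rose (against 15.3%). They were GFM1, the mitochondrial elongation factor (log2 fold change −0.56, adjusted p = 0.0218), ETF1, the release factor that reads stop codons (−0.49, adjusted p = 0.0275), and GSPT1, its GTPase partner (−1.04, adjusted p = 0.0385). GSPT1 varied among controls, at 33.7, 80.4 and 49.4 FPKM against 27.5, 24.7 and 21.3 FPKM in shDLGAP5-1, and its call held in 1 of the 6 fits without 1 library, the one without shNC-1 replicate 1. Of those fits, the ETF1 call held only without shDLGAP5-1 replicate 3, and that of GFM1 ended when shNC-1 replicate 1 or 2, or shDLGAP5-1 replicate 2, was left out. With no filter on low values the calls of GFM1, ETF1, GSPT1 and DHX29 ended (adjusted p = 0.0518 to 0.124), and that of GSPT1 also with quantile normalization (0.0502) and with the length trend removed (0.0574). The elongation factors EEF1A1 and EEF2, among the most abundant transcripts of the list, stood at means of 2716 and 804 FPKM in shNC-1 and 3097 and 1022 FPKM in shDLGAP5-1. Every shDLGAP5-1 library lay above the controls in both, but neither passed (adjusted p = 0.349 and 0.117).

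**Figure D5:**
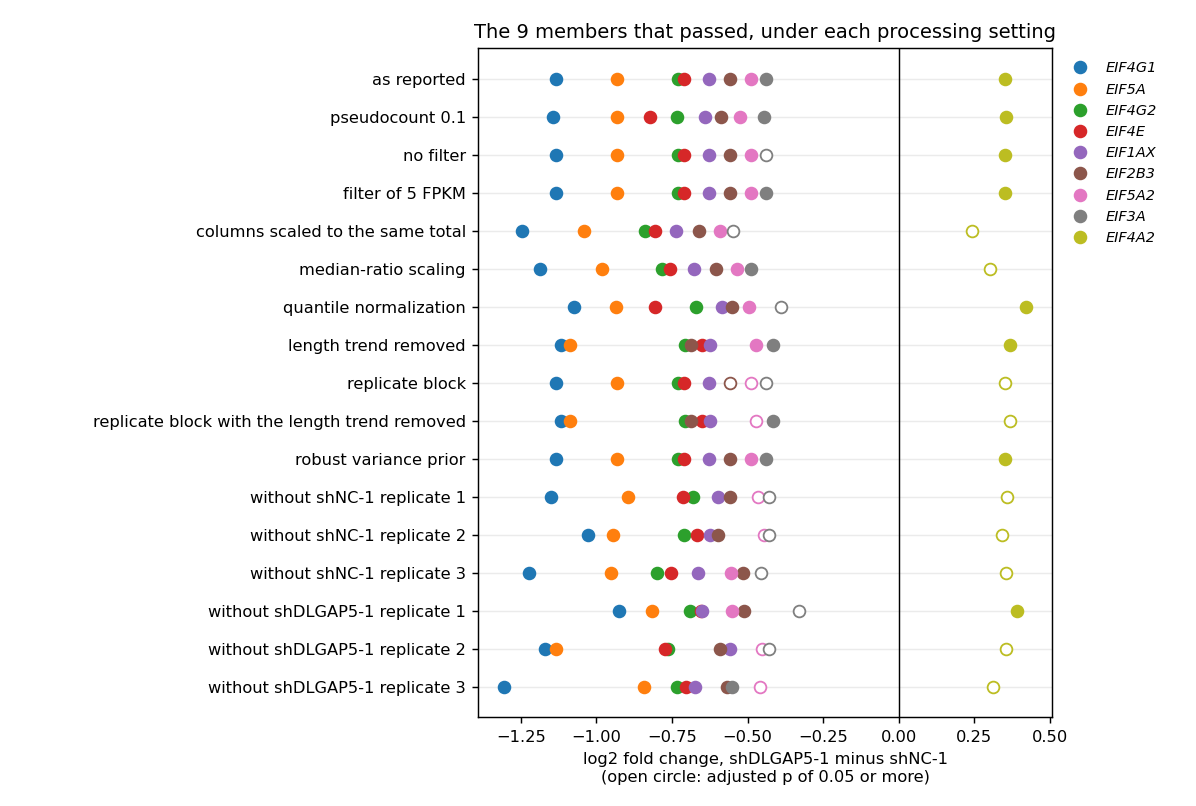
Log2 fold change (x axis) of the 9 members that passed, in the fit as reported and in 16 alternative fits (rows); open circles had an adjusted p of 0.05 or more. No gene changes sign, and EIF4G1, EIF5A, EIF4G2, EIF4E and EIF1AX are filled in every row.

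Reads of some members can be shared with overlapping entries, since the use of strand is not given in the sources used here. EIF4G2 overlaps CTR9 on the other strand (15.5 to 16.7 FPKM in shNC-1), EIF5A overlaps GPS2 (28.6 to 36.0 FPKM) and EIF4A2 overlaps RFC4 (35.1 to 47.5 FPKM). Of these CTR9, GPS2 and RFC4 did not pass. EIF2A, which did not pass, overlaps SERP1, which rose by 0.39 in log2 units (limma adjusted p = 0.0274), and EIF3B overlaps SNX8, which fell by 0.43 (adjusted p = 0.0358). EIF4G1 and EIF1AX overlap only small RNA or antisense entries at no more than 1.52 FPKM, and EIF5A2 overlaps none.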

How the data were processed

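The deposited table holds 1 value per gene and library; its header names no unit, and whole-number steps in low single-exon genes that scale with length, with totals that differ between libraries, mark the values as FPKM made by the authors. The aligner, counter and build, and whether strand was used, were not given in the sources. Of the table's gene identifiers, 58552 (99.5%) are in GENCODE 29, and 51014 of these (87.1%) have the same start and end on GRCh38; 26 of the 52 members do, and coordinates are printed as the table gives them. Columns named NC were read as shNC-1 and the others, named by a number, as shDLGAP5-1. Genes that reached 1 FPKM in 3 or more libraries entered a test on log2(FPKM + 1) with limma 3.58.1 (R 4.3.3; trended variance, no covariates), and the script was tested on simulated data. Ratios within a library were compared by exact two-sided permutation tests. Same-numbered libraries did not deviate together (correlations −0.155, 0.0210 and −0.157), so numbers were not used as pairs. The text names DLGAP5, members that passed, members with a mean of at least 100 FPKM, members of the pairs and up to 3 genes per list of translation genes with the smallest p; others were named after their values were seen. Members, lists and tests were chosen with earlier results of these data known. Levels of the Y-linked EIF1AY are not given. The depth estimates rest on the values alone, and no counts were used. Alternatives changed the pseudocount, filter, scaling, length trend, variance prior and replicate block, left out each library, and, chosen after the values were seen, summed 2 pairs of entries that share reads.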

Additional observations from a re-analysis of the deposited data

How the results depend on the processing

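The count of all genes changed, 3155, was 2071 with no filter, 1464 with the replicate block and 1326 to 2806 with 1 library left out. Among the initiation factor genes, 0 rose under the replicate block (0 also when the length trend was removed as well), 0 under median-ratio scaling and 0 when columns were scaled to the same total, while 2 rose with quantile normalization and 0 to 1 with 1 library left out. The number that fell, 8, was 5 with the replicate block, 6 to 8 with 1 library left out, 10 when columns were scaled to the same total, 11 under median-ratio scaling and 12 with the length trend removed. EIF2B3 kept its call in all fits but that with the block (adjusted p = 0.0582). Of the other translation genes, 1 rose under median-ratio scaling and 1 with the length trend removed, 0 under the replicate block (0 also when the length trend was removed as well), 0 when columns were scaled to the same total, 0 with no filter, and 0 to 2 with 1 library left out. The number of them that fell was 7 with no filter, 1 with the replicate block and 2 to 12 with 1 library left out. The members' median log2 fold change was −0.24 with columns scaled to the same total, −0.19 to −0.09 with 1 library left out, and negative in all 16 alternatives. Under that scaling the median over all tested genes was −0.06, where the fit as reported gave 0.03. The members' median less the all-gene median was therefore similar in these fits, at −0.18 and −0.17. This difference was −0.07 under quantile normalization and −0.23 without shNC-1 replicate 1. The cause of these shifts was not tested. The fits that left 1 library out also had fewer libraries, and the part of that number was not tested either. None of the 12 ratios moved by as much as the larger SD of its groups with 1 library left out (0 of 72 values). With 3 libraries per group a shift of that size cannot occur, so this check does not bear on how stable the ratios are. Over 61 named genes, 837 values kept their sign and side of the threshold, 89 lost the call and 18 gained it. Another 34 values, in 15 genes, changed sign without a call in either fit. Depth was lowest in shDLGAP5-1 libraries and could not be checked against counts.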
